A study of Homo sapiens with 8 samples.

Results

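Interferon regulatory factors (IRFs) are DNA-binding proteins that switch interferon-responsive genes on or off. The deposited table lists 16525 genes, and the 5 genes described here, IRF1, IRF2, IRF3, IRF7 and IRF9, were taken from it by name: the symbol IRF followed by 1 digit, leaving out the genes of the IRF2-binding proteins. Not every gene that this naming rule takes in is reported here. The naming rule itself uses no measured value, but the genes were picked for description with earlier results of these data known.

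RNA was sequenced from EndoC-βH5 cells, a human beta-cell line made from fetal pancreas, immortalized with transgenes that were later removed. Of the 8 libraries, 4 came from untreated cells (control) and 4 from cells given interleukin-1β (IL-1β, 50 U/mL), interferon γ (IFNγ, 1000 U/mL) and tumor necrosis factor-α (TNFα, 1000 U/mL) together for 48 hours (cytokine). The comparison asks how the cytokine mix changed the transcriptome of these cells. The libraries are called A to D here by the shared start of their column names, so that control A and cytokine A form a pair. A and B share one ending of that start and C and D another. The cells are 1 line, and with the mix given as a whole the part of each cytokine cannot be told apart. Nothing in the sources ties the replicates to separate cultures, so p-values measure the spread between these samples, which may be technical.

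The IRF proteins share a DNA-binding domain that reads repeats of GAAA. IFNγ acts through its receptor, the kinases JAK1 and JAK2 and factors that bind GAS elements, and it switches on IRF1, a transcriptional activator. IRF2 binds the same sites and can hold IRF1 back. IRF9 joins STAT proteins to form ISGF3, the factor that type I interferons activate. IRF3 and IRF7 lie dormant in the cytoplasm until kinases downstream of viral RNA and DNA sensors phosphorylate them, after which they switch on interferon genes. In pancreatic beta cells the IRFs are known as part of the response to virus and to inflammatory cytokines.

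The promoters of IRF1 and IRF9, the genes with the largest changes of the 5, are shown for the elements that cytokine-activated factors are known to bind. RefSeq promoter windows on GRCh38.p14, reaching from 250 bases before the start of transcription to 50 bases after it, were matched by symbol for 2 of the 5 genes, IRF1 and IRF9, and no others could be shown. The stretch before the start is printed 5′ to 3′ on the strand of the gene, for IRF1 at chr5:132490774-132491023 on the minus strand and for IRF9 at chr14:24161015-24161264 on the plus strand. Capitals mark matches to a GAS element (TTCNNNGAA) or to the NF-kB consensus, the site of the factor that IL-1β and TNFα activate.
IRF1: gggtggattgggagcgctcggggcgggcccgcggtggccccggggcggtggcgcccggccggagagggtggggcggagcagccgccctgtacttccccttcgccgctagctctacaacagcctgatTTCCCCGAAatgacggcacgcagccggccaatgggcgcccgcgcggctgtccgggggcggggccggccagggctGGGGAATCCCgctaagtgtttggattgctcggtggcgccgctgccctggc
IRF9: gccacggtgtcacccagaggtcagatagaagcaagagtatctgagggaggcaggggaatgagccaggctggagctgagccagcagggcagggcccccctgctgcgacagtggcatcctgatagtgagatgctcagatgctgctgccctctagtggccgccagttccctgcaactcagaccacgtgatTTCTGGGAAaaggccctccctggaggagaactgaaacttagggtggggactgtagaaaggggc
In the IRF1 window a GAS match (TTCCCCGAA) lay at positions -124 to -116, counted from the start of transcription, and an NF-kB match (GGGGAATCCC) at -50 to -41. In the IRF9 window a GAS match (TTCTGGGAA) lay at -63 to -55. Both strands were searched, and the 2 motifs of the IRF1 window did not overlap. Neither window held the core of an interferon-stimulated response element, which was searched as GAAA, any 2 bases and GAAA. Of 35116 promoter windows of the same length, 7.66% held the GAS motif, 5.91% the NF-kB consensus and 3.57% the response element core. The IRF1 window was 73.67% G and C with 36 CpG dinucleotides, and the IRF9 window 60% with 7, against medians of 58.67% and 14 over all windows. These matches are descriptions of letters, and binding was not measured.

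All 5 IRF genes were higher in the cytokine libraries. Expression is given in CPM, reads on a gene scaled to the depth of its library, and a gene was called changed at an absolute log2 fold change above 0.5 with an adjusted p (FDR) below 0.05 in limma across all genes. By this rule 27.0% of the 16525 genes were called, 9.52% higher and 17.5% lower. For each of the 5 IRF genes the lowest cytokine library lay above the highest control library. The ranges of the groups were apart, in either direction, for 32.8% of all genes. The 2-sided exact permutation test of each gene gave p = 0.0286, the smallest that 4 against 4 libraries allow. The median gene had a log2 fold change of -0.17 on this scale and -0.01 after TMM scaling, so relative to the median gene each IRF log2 fold change is larger by 0.17 than the value given below. In bulk RNA, fewer cells of a type and less RNA per cell cannot be told apart.

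**Figure D1:**
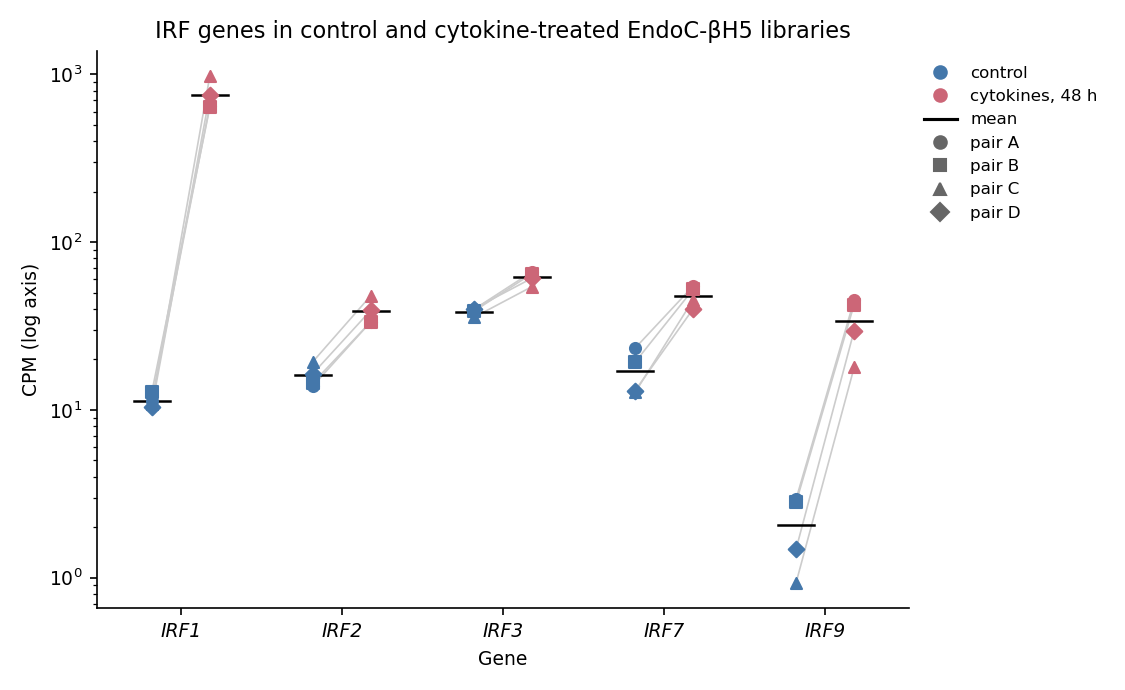
CPM of the 5 IRF genes (log axis) in each library, with blue for control, red for cytokine, one marker shape for each pair A to D, grey lines joining pairs and a bar at the mean of 4. Every cytokine library lies above every control library for each gene, with the widest gap for IRF1 (11.3 to 755 CPM) and the narrowest for IRF3 (38.6 to 61.7 CPM).

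IRF1, the activator that IFNγ signaling induces (ENSG00000125347, chr5:132481609-132490798, minus strand, GRCh38), had the largest change of the 5. Control libraries A to D held 11.3, 12.8, 10.8 and 10.3 CPM, and cytokine libraries A to D held 651, 635, 977 and 755 CPM. The control values lay close together, and cytokine C stood highest. The mean went from 11.3 ± 1.05 to 755 ± 157 CPM (SD, n = 4 each), which is 66.7-fold. The limma estimate was a rise of 6.03 on the log2 scale (SE 0.15, adjusted p = 8.74e-10), the 44th largest of the table. Behind these values stand 529 to 603 reads in the control libraries and 29752 to 48509 in the cytokine libraries.

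IRF2, which binds the same elements as IRF1 and is known as its antagonist (ENSG00000168310, chr4:184387713-184474580, minus strand), rose far less. Its control values were 13.9, 14.5, 19.4 and 16.5 CPM in A to D, and its cytokine values 33.6, 33.5, 48.0 and 39.3 CPM. Library C was the highest and A and B the lowest in both conditions, and the groups did not overlap. The mean rose 2.40-fold, from 16.1 ± 2.48 to 38.6 ± 6.85 CPM (SD, n = 4 each). The limma estimate on the log2 scale was 1.26 (SE 0.16, adjusted p = 0.000188). Within pairs the log2 difference was 1.27, 1.21, 1.30 and 1.25, a narrow range.

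IRF9, the DNA-binding subunit of ISGF3 (ENSG00000213928, chr14:24161053-24166565, plus strand), was the lowest of the 5 in control cells. Control A to D held 2.95, 2.82, 0.936 and 1.49 CPM, which is 47 to 138 reads, and cytokine A to D held 45.0, 42.5, 17.9 and 29.7 CPM. Library C was lowest and library A highest in both conditions. The mean rose 16.5-fold, from 2.05 ± 0.993 to 33.8 ± 12.5 CPM (SD, n = 4 each). In limma it changed by 4.03 on the log2 scale (SE 0.38, adjusted p = 2.28e-05), the 123rd largest of the table. In GENCODE 29, 1838 of the 3794 exon bases of IRF9 also belong to a readthrough gene on the same strand that joins RNF31 to IRF9. The longest principal transcript of IRF9, a main form in the annotation, is likewise 1838 bases long. The shared bases may therefore cover all of it, which was not checked. HTSeq with default settings, as the methods give it, assigns a read that lies on 2 genes to neither. Whether the annotation release behind the counts lists the readthrough gene was not checked, and its part in the IRF9 level was not tested.

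IRF7, the inducible factor that amplifies type I interferon production (ENSG00000185507, chr11:612553-615999, minus strand), held 23.3, 19.2, 12.7 and 13.0 CPM in control A to D. It held 54.6, 52.2, 45.2 and 39.9 CPM in cytokine A to D. Libraries A and B stood above C and D in both conditions, and the lowest cytokine library was still above the highest control library. The mean rose 2.81-fold, from 17.1 ± 5.14 to 48.0 ± 6.70 CPM (SD, n = 4 each). The limma estimate on the log2 scale was 1.52 (SE 0.20, adjusted p = 0.000278).

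IRF3, the constitutive factor behind the first wave of interferon β (ENSG00000126456, chr19:49659569-49665875, minus strand), had the smallest change. It held 39.7, 38.8, 35.6 and 40.1 CPM in control A to D and 66.6, 64.9, 54.3 and 61.0 CPM in cytokine A to D. Library C was the lowest in both conditions. The mean rose 1.60-fold, from 38.6 ± 2.03 to 61.7 ± 5.46 CPM (SD, n = 4 each). By limma this was a rise of 0.67 on the log2 scale (SE 0.11, adjusted p = 0.00107), larger than that of 91.0% of the genes, and 0.83 after TMM scaling. IRF3 shares 734 exon bases with BCL2L12 on the other strand, and the library kit kept the strand.

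**Figure D2:**
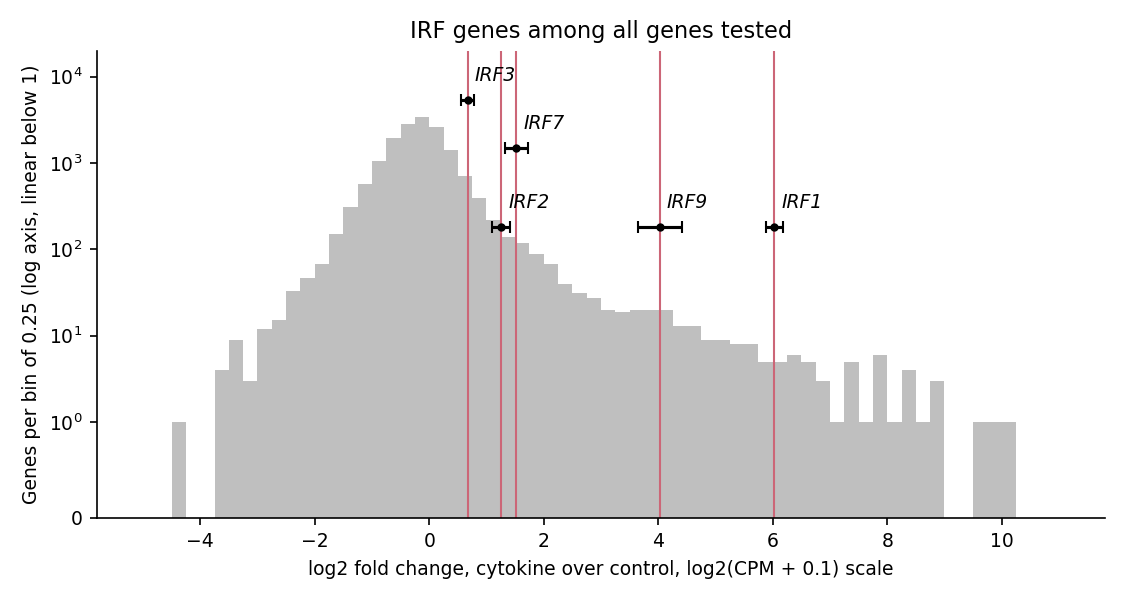
Histogram of the log2 fold changes of all 16525 genes in bins of 0.25 (log count axis, linear below 1), with a red line and a point with its SE at each IRF gene. IRF3 (0.67), IRF2 (1.26) and IRF7 (1.52) lie on the right shoulder of the distribution, and IRF9 (4.03) and IRF1 (6.03) lie in its right tail.

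The gain in CPM ordered the genes as the fold change did, except that IRF3 stood just above IRF2. IRF1 gained 743 CPM, while IRF9 gained 31.7, IRF7 30.9, IRF3 23.1 and IRF2 22.5 CPM. IRF9 and IRF3 gained these amounts from control means of 2.05 and 38.6 CPM.

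The pair of libraries A and B differed from C and D in the level of several IRF genes. In a fit with condition and this split as terms, 37.4% of all genes differed between the splits at an FDR below 0.05. IRF9 was lower in C and D by 1.07 on the log2 scale (C and D minus A and B -1.07, SE 0.18, adjusted p = 0.000796, limma) and IRF7 likewise (-0.52, adjusted p = 0.00276). IRF2 was higher in C and D (0.35, adjusted p = 0.0145). For IRF1 (0.12, adjusted p = 0.493) and IRF3 (-0.12, adjusted p = 0.276) the split did not pass the threshold. What the split stands for is not given in the labels.

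The cytokine change itself was present on both sides of the split. The log2 fold change was 5.73 in A and B and 6.33 in C and D for IRF1, 1.24 and 1.28 for IRF2, and 0.74 and 0.60 for IRF3. It was 1.33 and 1.72 for IRF7, and 3.88 and 4.17 for IRF9. No IRF gene passed the test of the difference between these values (adjusted p = 0.999 for each, limma interaction term), and 0.0303% of all genes, 5 in number, did. The nearest to it was IRF1, with a difference of 0.60 (SE 0.19, unadjusted p = 0.00983, limma), followed by IRF7 with 0.39 (unadjusted p = 0.0724, limma). At an unadjusted p below 0.05 there were 488 genes over the table.

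To compare the 5 genes with each other, CPM was divided by the exon length of each gene in GENCODE 29 and scaled to a common total in each library (TPM). In control cells IRF3 led with 38.9 ± 5.38 TPM, followed by IRF7 with 24.2 ± 4.23, IRF2 with 20.0 ± 5.60, IRF1 with 5.52 ± 0.438 and IRF9 with 1.97 ± 0.736 TPM (SD, n = 4 each). Of the neighbours in this order only IRF7 and IRF2 overlapped in their ranges. Among all genes, IRF3 stood above 79.6% in control TPM and IRF9 above 14.4%. The level, rank and share of IRF9, here and below, carry the limit given above for reads shared with the readthrough gene.

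In the cytokine libraries the order was another. IRF1 came first with 407 ± 122 TPM and a range of 305 to 559 TPM, and no other IRF gene reached that range. IRF7 followed with 74.9 ± 2.90, IRF3 with 67.1 ± 5.40, IRF2 with 52.1 ± 14.3 and IRF9 with 35.9 ± 10.4 TPM (SD, n = 4 each), and each of these overlapped the next in the order. IRF1 thus moved from above 31.9% of all genes to above 98.9%, and IRF9 from 14.4% to 77.2%. The order of the lower 4 depended on the length used: with the longest principal transcript, a choice added after seeing the data, IRF3 (146 TPM) stood above IRF7 (96.0 TPM) in the cytokine libraries without overlap.

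The balance of IRF1 to its antagonist IRF2 turned over. Per exon length the ratio of IRF1 to IRF2 was 0.326, 0.352, 0.222 and 0.251 in control A to D and 7.75, 7.57, 8.12 and 7.68 in cytokine A to D. IRF2 was the more abundant in every control library and IRF1 in every cytokine library. The mean ratio went from 0.288 ± 0.0613 to 7.78 ± 0.239 (SD, n = 4 each), a difference of 4.78 on the log2 scale (2-sided exact permutation p = 0.0286). The ratio is made of the IRF1 and IRF2 values given above, so this p is not independent of theirs and adds no support. The cytokine ratios lay closer together on the log2 scale (SD 0.04) than the control ratios (SD 0.31), although IRF1 and IRF2 themselves varied between cytokine libraries. With the principal transcript length the means were 0.464 and 12.5, on the same sides of 1.

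The summed TPM of the 5 genes rose 7.03-fold, from 90.6 ± 6.86 to 637 ± 128 (SD, n = 4 each). IRF1 made up 6.10 ± 0.468% of this sum in control cells and 63.0 ± 6.26% in cytokine-treated cells (SD, n = 4 each). The share of IRF3 went from 42.8 ± 2.89% to 10.8 ± 1.92%, that of IRF7 from 26.9 ± 6.04% to 12.1 ± 2.49%, and that of IRF2 from 21.9 ± 4.96% to 8.08 ± 0.614%. For each of these 4 genes the groups did not overlap (2-sided exact permutation p = 0.0286, 0.0357 after Benjamini-Hochberg adjustment over the 5 shares). IRF9 went from 2.22 ± 0.945% to 6.03 ± 2.61%, which did not pass (exact permutation p = 0.0857, adjusted 0.0857), cytokine C at 2.67% lying within the control range. The shares of a library add up to the whole, so a larger share of IRF1 leaves less for the others and these tests are not independent. The smaller shares of IRF2, IRF3 and IRF7 stood beside higher levels of each.

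**Figure D3:**
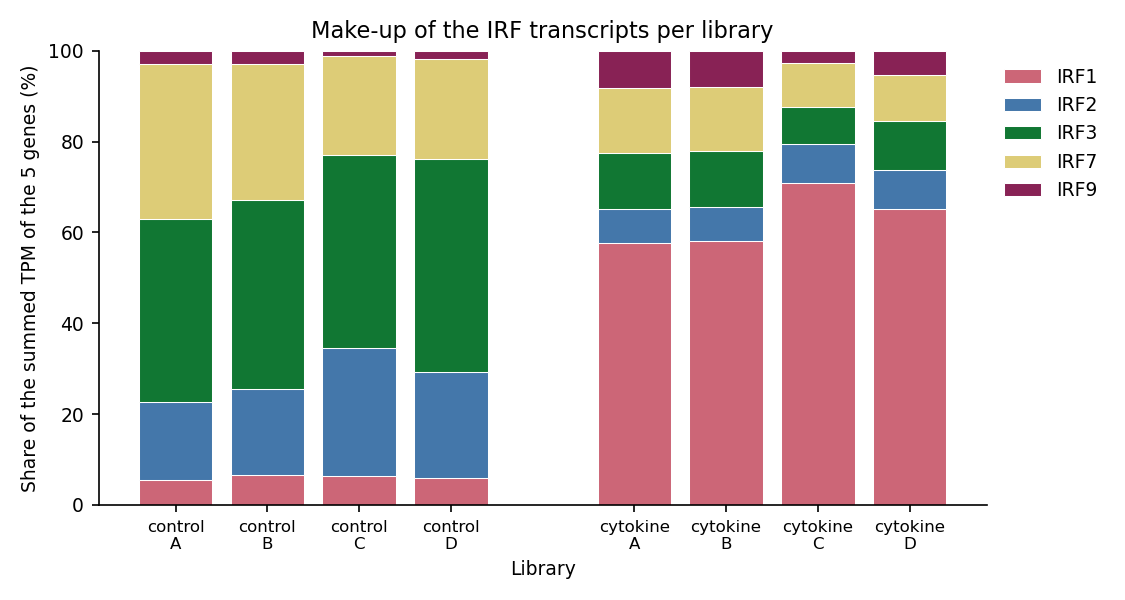
Share of each IRF gene in the summed TPM of the 5 genes (%) for each library, stacked to 100%. IRF3 takes the largest share in every control library (mean 42.8%), and IRF1 in every cytokine library (mean 63.0%, highest in cytokine C at 70.8%).

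Genes next to an IRF gene were taken as those of the table whose annotated span lay within 25 kb of it. Of 19 such genes, 7 were called higher and 12 were not called, and their median log2 fold change was 0.36 against -0.17 over all genes. Beside this count and those below for each IRF gene stand 9.52% of all genes called higher and 17.5% called lower.

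At IRF1 the single neighbour was IRF1-AS1, a long noncoding RNA transcribed from the other strand that overlaps it. IRF1-AS1 held 0.836 to 2.12 CPM in the control libraries, lowest in C, and 36.6, 42.6, 16.4 and 31.7 CPM in cytokine A to D. It rose by 4.15 on the log2 scale (SE 0.34, adjusted p = 7.18e-06, limma). Its lowest cytokine library was C, the one in which IRF1 was highest. In GENCODE 29, 1716 of the 7799 exon bases of IRF1 are also exon on the other strand. The kit was strand-specific, and how many IRF1 reads crossed to the other strand was not tested.

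The IRF9 locus had the most neighbours that rose, 4 of 7. PSME1 and PSME2, which encode both subunits of the proteasome activator that IFNγ is known to induce, rose from 35.2 ± 6.91 to 171 ± 50.8 CPM and from 45.6 ± 1.60 to 264 ± 26.7 CPM (SD, n = 4 each). Their log2 fold changes were 2.25 and 2.53 (adjusted p = 1.86e-05 and 4.58e-08, limma). REC8, a meiotic cohesin subunit, rose by 0.83 and the noncoding ENSG00000259321 by 1.86 on the log2 scale. ENSG00000259321 stood at 0.402 CPM in control B, while the filter of the table kept genes above 0.5 CPM in 4 or more samples. It could enter only with the help of other libraries, so its call, counted above, is description only. RNF31, EMC9 and TM9SF1 were not called (log2 fold changes of 0.36, 0.29 and 0.09).

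At IRF2 the divergent noncoding transcript IRF2-DT, which starts 222 bases away on the other strand, rose from 3.38 to 6.36 CPM on average, by 0.85 on the log2 scale (adjusted p = 0.0227, limma). The log2 fold change of IRF2-DT was 1.27 in A and B and 0.42 in C and D (unadjusted p = 0.0233, adjusted p = 0.999, limma interaction term). ENSG00000270426, noncoding and inside the IRF2 span, stood at 0.68 and was not called. At IRF3 only ADM5, 22789 bases away, was called (log2 fold change 3.06). BCL2L12 (-0.34), SCAF1 (-0.29), PRMT1 (0.00) and RRAS (0.50) were not, although RRAS was called with the replicate block (adjusted p = 0.00116 against 0.0727 without it, limma). At IRF7, DRD4, SCT, PHRF1 and CDHR5 were all below the threshold, with log2 fold changes from -0.39 to -0.06.

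**Figure D4:**
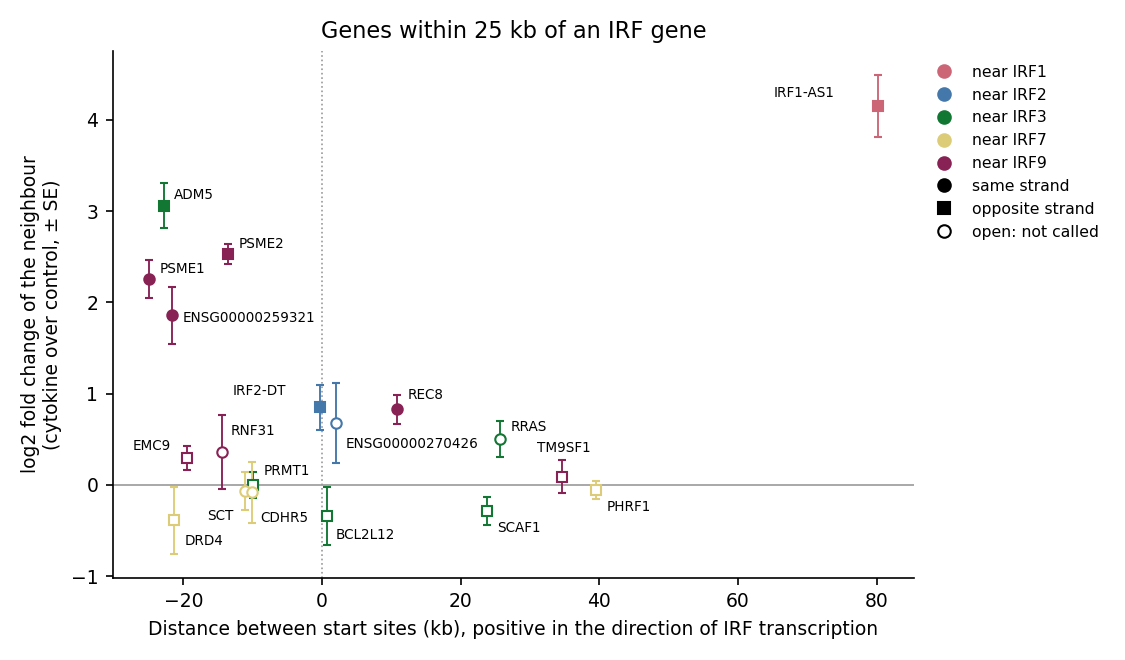
Log2 fold change (± SE) of the 19 genes within 25 kb of an IRF gene against the distance between start sites in kb, colored by IRF gene, with circles for the same strand, squares for the other strand and open symbols for genes not called. IRF1-AS1 (4.15), ADM5 (3.06), PSME2 (2.53) and PSME1 (2.25) stand highest, and the 4 neighbours of IRF7 lie between -0.39 and -0.06.

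The genes that carry the signal to the IRFs changed in part. Beside the list counts here and below stand the 9.52% of all genes called higher and the 17.5% called lower. Of 8 receptor, kinase and STAT genes, 3 were called higher and 5 were not called, with a median log2 fold change of 0.16. STAT2, a partner of IRF9 in ISGF3, rose from 88.4 ± 19.1 to 375 ± 113 CPM (log2 fold change 2.05, adjusted p = 0.00015, limma). IFNGR2, a chain of the IFNγ receptor, stood at 61.5 and 59.0 CPM (-0.06, adjusted p = 0.812, limma). JAK2, one of the kinases of the IFNγ receptor, rose from 5.46 to 73.1 CPM on average, the largest change of these 8 (3.72, adjusted p = 3.11e-08, limma). IFNAR2, a chain of the type I receptor, rose by 0.93 on the log2 scale, and both were named after their values were seen. The kinase JAK1 stood at 82.3 and 87.3 CPM (0.08, adjusted p = 0.761, limma). TYK2, a kinase of the type I receptor, stood at 116 and 86.0 CPM (-0.43, adjusted p = 0.0181, limma), short of the fold threshold. Of 5 feedback inhibitors of interferon signaling, 4 were called higher. SOCS3, which is among these, held 0 to 0.0391 CPM (0 to 2 reads) in the control libraries, all below 0.5 CPM. Of the other 4 genes 3 were called. Among them SOCS1, an inhibitor of JAK kinases, rose by 5.62, USP18, which blocks the type I receptor, by 1.43 and the phosphatase PTPN2 by 0.76 on the log2 scale, while PIAS1, an inhibitor of STAT signaling (0.18), was not called.

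Upstream of IRF3 and IRF7, 13 of 16 listed sensors, adaptors and kinases were in the table, and 7 were called higher and 6 were not called. Of the 12 above 0.5 CPM in all 4 control libraries, 6 were called higher, and the median log2 fold change of these 12 was 0.51. IFIH1, the RNA sensor MDA5, rose the most of them (3.17) and was named after its value was seen. The most abundant members changed less. MAVS, the adaptor of the RNA sensors, stood at 127 and 111 CPM (-0.20), the kinase IRAK1 at 89.2 and 78.4 CPM (-0.18) and the ubiquitin ligase TRAF3 at 75.0 and 58.5 CPM (-0.36), and none was called. TICAM1, the adaptor of toll-like receptor signaling to IRF3, was called (0.63, adjusted p = 0.0396, limma) although its ranges overlapped between the groups. CGAS, STING1 and TLR3 were not analysed here.

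Of 7 cofactors and regulators of IRF proteins, 2 were called higher, 1 lower and 4 not. RBCK1, also called HOIL-1, rose from 385 ± 88.6 to 766 ± 188 CPM (0.99). TRIM21, a ubiquitin ligase that acts on several IRF proteins, rose by 4.27. IRF2BPL, a relative of the IRF2-binding proteins, fell by 0.71 on the log2 scale, and it was not called with values taken relative to GAPDH (limma). TRIM21 and IRF2BPL were named after their values were seen. IRF2BP2 (0.39), EP300 (0.29) and CREBBP (0.31), a corepressor and the coactivators p300 and CBP, were not called.

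Genes known as targets of the IRFs were read with the filter of the table in mind, which kept genes above 0.5 CPM in 4 or more samples. A gene with fewer than 4 control libraries above that level could enter only with the help of other libraries, so that its call of higher is not independent of its presence. Of 13 textbook targets of IRF1, 10 were in the table, and 5 of these were above 0.5 CPM in all 4 control libraries. These 5 were called higher, among them TAP1 (log2 fold change 7.80) and B2M (3.97), which serve the loading of peptides on MHC class I. The other 5, CD274, CIITA, GBP2, IL15 and PSMB9, had at least 1 control library at or below 0.5 CPM, and their calls are given as description only. PSMB9, an immunoproteasome subunit, went from 0.401 to 109 CPM on average, and the checkpoint ligand CD274 from 0.624 to 111 CPM.

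Of 16 textbook targets of ISGF3, 14 were in the table, and 9 of these were above 0.5 CPM in all 4 control libraries. These 9 were called higher, among them RSAD2 (5.80), IFI6 (3.12) and OAS3 (2.97), all antiviral or interferon-inducible genes. For IFI27, IFIT2, IFIT3, OAS2 and OASL the same limit holds as for CD274. IFIT3, which had the highest fitted change of the list (8.63), averaged 0.570 CPM in control cells and 216 CPM under cytokines. The genes named were those of highest mean CPM over all 8 libraries, which is a rank set by the cytokine libraries. In control cells MX2 (21.2 CPM) and EIF2AK2 (31.8 CPM), for example, stood above RSAD2 and CD274. MX2 and EIF2AK2 were called higher with the smallest log2 fold changes of their lists, 0.71 among the ISGF3 targets and 0.99 among the IRF1 targets. NF-kB also acts on several of these genes, and SOCS1 and USP18 stand in 2 of the lists. The 10 interferon genes of the lists were not analysed here.

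**Figure D5:**
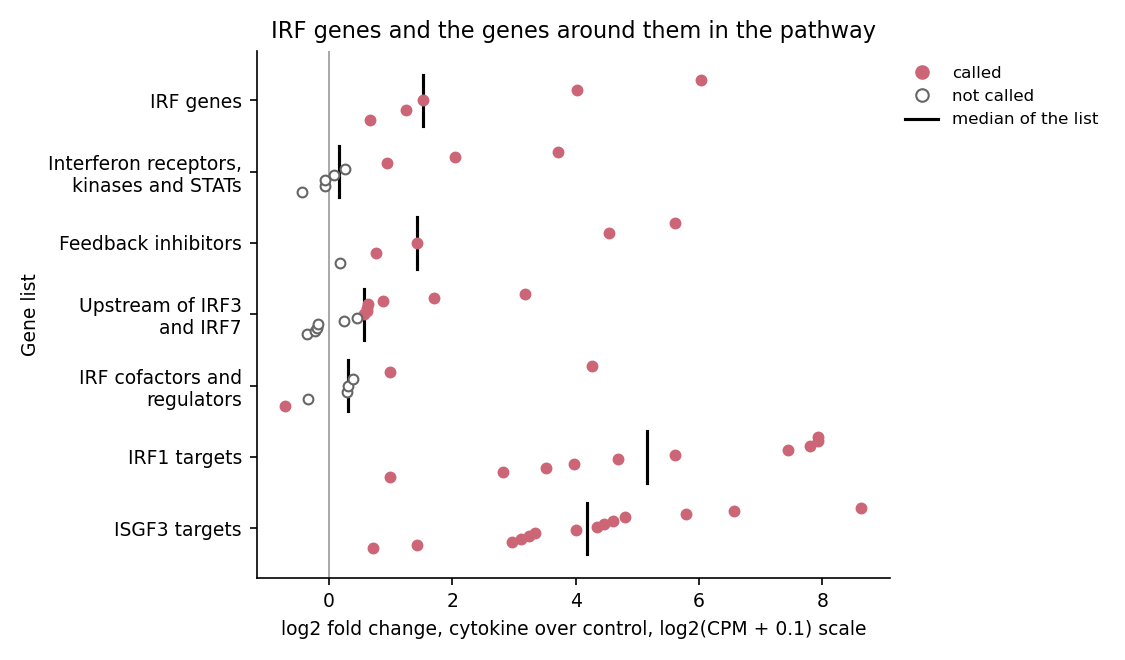
Log2 fold change of each gene (points, red where called) in the IRF group and in 6 pathway lists, with a bar at the median of each list. The 10 IRF1 targets and the 14 ISGF3 targets, of which 5 each had a control library at or below 0.5 CPM, lie to the right of 0, while the receptors, kinases and STATs (median 0.16) and the cofactors (median 0.31) spread around it.

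For each IRF gene the table was searched for the genes with the nearest profile, as the Euclidean distance over the 8 libraries of log2(CPM + 0.1) minus the control mean, among the 14682 genes whose mean was 1 CPM or more. Nearest to IRF1 were ATF3 (distance 0.506), UBE2L6 (0.743) and APOL1 (0.843). Nearest to IRF2 were TIPARP (0.190), OGFR (0.223) and NDRG4 (0.229), and nearest to IRF3 were METTL22 (0.179), STX17 (0.180) and SLC37A1 (0.190). Nearest to IRF7 were CX3CL1 (0.203), UAP1L1 (0.321) and KLB (0.568). IRF9 was nearest to IRF1-AS1 (0.645), ENSG00000261884 (0.690) and NRIR (0.722), a noncoding RNA known as a negative regulator of the interferon response. NRIR held 0.0398 to 0.423 CPM (2 to 20 reads) in the control libraries, all below 0.5 CPM. The added 0.1 CPM therefore weighs on its distance. These distances describe 8 libraries and include the split of A and B against C and D. Like IRF9, IRF1-AS1 was lowest in library C and stood at 16.4 CPM there under cytokines. ATF3, like IRF1, was highest in cytokine C, at 217 CPM against 104 to 134 CPM in the others.

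The cells held beta-cell transcripts in both conditions. All 14 beta-cell markers searched were in the table, among them INS at 2169 ± 744 and 1846 ± 322 CPM and CHGA at 19221 ± 3843 and 25501 ± 7243 CPM (SD, n = 4 each). Under cytokines 9 of the 14 were called lower and 5 were not called, against 17.5% of all genes called lower. The median log2 fold change of the 14 was -0.59, and after TMM scaling 5 were called lower and 2 higher. IAPP, the amyloid peptide secreted with insulin, stood at 4102 ± 1844 and 7787 ± 3443 CPM (0.93, adjusted p = 0.0765, limma), and with the replicate block it was called higher (adjusted p = 3.52e-09, limma). Of 12 leukocyte markers 1 was in the table, CD14, at 1.07 to 3.26 CPM in control and 1.23 to 1.95 CPM in cytokine libraries, and the others were not analysed here. Other pancreatic markers were led by SST, of delta cells, at 1219 ± 868 and 1216 ± 766 CPM, with 9 of 16 in the table and 1 called lower (CPA1, of acinar cells). GCG, of alpha cells (-1.47), and KRT19, of duct cells (0.01), were not called, but with the replicate block GCG was called lower (adjusted p = 3.89e-05, limma), all 4 pairs falling. Of 7 housekeeping genes 1 was called lower (RPLP0), and the log2 fold changes of GAPDH, ACTB and PPIA were -0.21, -0.20 and -0.09.

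Reads on the listed genes numbered 36956294 to 40117636 in the control and 36577438 to 39348935 in the cytokine libraries, so that 1 read was worth 0.0196 to 0.0214 CPM. Each IRF value rests on at least 529 reads, except those of IRF9 in control cells. Of all genes, 1574 were called higher and 2896 lower, 64.8% lower, against 2168 and 1911, 46.9% lower, after TMM scaling. The 5 IRF genes were called higher in both.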

How the data were processed

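mRNA libraries made with a strand-specific kit were sequenced as 100 bp paired-end reads. Per the methods and the submitters' processing notes, reads were cleaned with SOAPnuke, aligned to GRCh38 with TopHat2 2.1.1 and counted on Ensembl 107 genes with HTSeq 0.9.1 at default settings. The values deposited by the authors are CPM (counts per library total, scaled), for genes that passed 0.5 CPM in 4 or more samples. Another 4 columns of the table were not used.

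Every CPM value of the 8 libraries was a whole multiple of 1 read (tolerance 0.001), which gave the reads behind each value. On log2(CPM + 0.1), limma 3.58.1 in R 4.3.3 with an intensity trend compared 4 cytokine with 4 control libraries, without a block, with p adjusted by Benjamini-Hochberg over all 16525 genes, and calls used the thresholds of the study. A fold change on this scale understates the change of low genes. Exact permutation tests were 2-sided. Alternatives used DESeq2 1.42.0 and edgeR 4.0.16 on those reads, other scalings, pseudocounts of 0.5 and 1, a filter at a mean of 1 CPM, and each library left out in turn. In data simulated for the cytokine against control comparison on 16525 genes, limma recovered 100 of 100 genes changed by 1 and 100 of 100 changed by 2 on the log2 scale, with 10 false calls. The simulation gave all genes the same dispersion and no difference between A and B and C and D. Only 200 genes were changed, in either direction, and genes with few reads were not among them. These counts therefore do not measure how the test did on the real libraries.

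Lengths and coordinates came from GENCODE 29, in which 16167 genes (97.8%) had an entry. TPM used the summed exon length of each gene. Figures were drawn with matplotlib 3.10.9 in Python 3.11.15, and other tables used scipy 1.17.1, numpy 2.4.6 and pandas 2.3.3. The members and gene lists were chosen with earlier results of these data known. Named genes were every IRF gene described, up to 4 genes of highest mean CPM from each list, every gene within 25 kb and the 3 nearest profiles. Some genes of the naming rule and of the lists are not reported here and are left out of the list counts.

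The columns carry no replicate number, so pairs were formed by the shared start of the column names. As a check, deviations from the group mean over genes whose mean was 1 CPM or more correlated by 0.57, 0.59, 0.80 and 0.74 within pairs A to D, but A and B could not be told apart: control A correlated with cytokine B by 0.57 and control B with cytokine A by 0.59.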

Additional observations from a re-analysis of the deposited data

Results flagged for a closer look

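In groups of 4 libraries, a library was marked where its gap to the nearest of the others, divided by the whole range of the group, was above Dixon's critical value. Of 162 groups tested for the named genes 7 were marked, near what chance gives at 5%. None of the 5 IRF genes was among them, and no named gene differed in its cytokine effect between A and B and C and D after adjustment (limma interaction term).

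Cytokine C was the library that stood apart for 4 genes. IRF2BP2 was 188 CPM there against 135 to 138 in the others (gap ratio 0.937), and PRMT1 was 122.5 against 92.8 to 96.7 (0.871). TYK2 was 76.4 CPM there against 88.7 to 90.0 (0.908), and OAS3 was 227 against 283 to 291 (0.882).

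Control C was highest for CHGA, with 24930 CPM against 16689 to 17991 (0.842), and for RPLP0, with 928 against 729 to 762 (0.834). SOCS1 was highest in control B, with 1.69 CPM against 0.956 to 1.08 (0.838).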

How the results depend on the processing

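The calls of the 5 IRF genes kept their direction and their side of the threshold in all 100 alternative values (20 for each gene). The log2 fold change ranged from 5.90 to 6.24 for IRF1, from 1.15 to 1.47 for IRF2, from 0.64 to 0.88 for IRF3, from 1.40 to 1.73 for IRF7 and from 3.49 to 4.30 for IRF9. With 1 library left out it ranged from 5.90 to 6.11, 1.15 to 1.35, 0.64 to 0.73, 1.40 to 1.69 and 3.72 to 4.30. The log2 difference of the IRF1 to IRF2 ratio ranged from 4.66 to 4.89, and the change in the IRF9 share, which did not pass, from 1.44 to 4.93 percentage points.

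With the replicate block of pairs A to D the log2 fold changes stayed at 6.03, 1.26, 0.67, 1.52 and 4.03, and IRF3 had an adjusted p of 1.2e-06 (limma). The block changed no IRF call, but it added IAPP (higher), GCG (lower), PPY (higher) and, next to IRF3, RRAS (higher). PPY held 0.233 to 0.796 CPM in the control libraries, not all above the 0.5 CPM of the filter, so its call is description only. Over the table, 5852 genes were called with the block and 4470 without it, and 3899 to 4339 with 1 library left out. The fewest, 3553, were called relative to GAPDH.

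Some list counts moved over the 20 alternatives, which include scalings, filters and libraries left out. Beta-cell markers called lower numbered 4 to 9 and called higher 0 to 3, and housekeeping genes called lower 1 to 3. The sensors, adaptors and kinases upstream of IRF3 and IRF7 called higher numbered 5 to 8, and the ISGF3 targets 13 to 14. The principal transcript length was an alternative chosen after seeing the data. Depth limits chiefly IRF9 in control cells, at 47 to 138 reads, and single-gene exact tests with 4 libraries a group cannot go below p = 0.0286.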
